A study of Mus musculus with 9 samples.

Results

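The 6 genes described here, mt-Cytb, mt-Co1, mt-Co2, mt-Co3, mt-Atp6 and mt-Atp8, are the protein-coding genes of mitochondrial DNA that do not belong to respiratory complex I. They were chosen by name, and all 6 were present in each of the 9 matrices, among 32427 genes in all. Together they held 71.5 to 75.5% of the UMIs of the 13 mitochondrially encoded mRNAs, before any limit on mitochondrial content. A UMI is a molecular tag that counts 1 captured RNA molecule. The values were raw UMI counts per cell from kidneys of 9 male C57BL/6 mice, which were 6 weeks old on arrival and were killed after 8 weeks. The 3 Control mice received saline. The 3 AKI-CKD mice received cisplatin at 8 mg/kg by weekly intraperitoneal injection, 4 injections in all, as a model of acute kidney injury that passes into chronic kidney disease. The 3 AKI-CKD + EGT mice received the same cisplatin and 0.5 mg/mL ergothioneine (EGT), a dietary thiol antioxidant, in the drinking water from before the first injection, so the comparison is of EGT given before and throughout the injury. Each group was sampled at 1 time.

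The respiratory chain passes electrons from complex I through complex III to complex IV, where oxygen is reduced, and complex V uses the proton gradient made on the way to synthesise ATP. mt-Cytb encodes cytochrome b, the only subunit of complex III encoded in mitochondrial DNA. mt-Co1, mt-Co2 and mt-Co3 encode the core of complex IV, cytochrome c oxidase, and mt-Co1 and mt-Co2 carry its redox centres. mt-Atp6 and mt-Atp8 encode membrane subunits of complex V, ATP synthase, and mt-Atp6 forms part of its proton channel. The remaining subunits of these complexes are encoded in the nucleus, so each complex is assembled from products of both genomes. Tubule segments such as the proximal tubule (PT), the loop of Henle (LOH) and the distal convoluted tubule (DCT) are rich in mitochondria, which supply ATP for salt and solute reabsorption.

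The libraries were primed on poly(A) tails, so the annotated 3′ ends of the members are shown. That of mt-Atp8 is left out, since mt-Atp8 continues into mt-Atp6 on the same mRNA. Where the tail starts after a gene that ends in a full stop codon was not tested. The transcript sequences came from GENCODE release M21 on build GRCm38 and were matched by gene name. The last 30 bases of the other 5 are written 5′ to 3′ on the sense strand, with the bases of the stop codon in capitals.
mt-Cytb: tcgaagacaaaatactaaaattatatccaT
mt-Co1: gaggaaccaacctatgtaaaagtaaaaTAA
mt-Co2: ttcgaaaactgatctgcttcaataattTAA
mt-Co3: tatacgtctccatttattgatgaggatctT
mt-Atp6: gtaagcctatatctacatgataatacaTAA
The annotated mt-Cytb (1144 bases) and mt-Co3 (784 bases) end after 1 base of the stop codon, which the poly(A) tail completes, whereas mt-Co1 (1545 bases), mt-Co2 (684 bases), mt-Atp6 (681 bases) and mt-Atp8 (204 bases) end in a full TAA. mt-Atp8 and mt-Atp6 lie on 1 mRNA and overlap. The whole of mt-Atp8 is shown because the split of reads between the pair bears on its counts, with the 43 bases shared with mt-Atp6 in capitals.
mt-Atp8: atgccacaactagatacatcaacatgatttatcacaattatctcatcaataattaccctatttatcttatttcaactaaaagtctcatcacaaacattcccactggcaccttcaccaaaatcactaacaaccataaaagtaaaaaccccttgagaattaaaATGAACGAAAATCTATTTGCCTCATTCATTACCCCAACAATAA
The shared bases are 21.1% of mt-Atp8. How the authors' counting divided reads between the pair is not given in the sources used here, so the division of counts between mt-Atp8 and mt-Atp6 is uncertain. mt-Atp6 and mt-Co3 share 1 base.

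After minimums of 1000 UMIs and 500 genes per cell and a limit of 15% mitochondrial UMIs, 196925 of 216680 barcodes were kept, from libraries of 70106161 to 101525691 UMIs. Clusters were named from marker genes into 14 cell types, of which PT held 144969 cells (73.6%), LOH 7788, DCT 8075, endothelial cells (Endo) 3654 and macrophages (Macro) 2212. Another 14196 cells stayed unnamed. The library of Control mouse 3 stood apart by its low mitochondrial content, and those of Control mouse 1 and AKI-CKD + EGT mouse 3 by their high content. PT marker genes were counted in every other type. The summed level of 14 PT marker genes in T cells had a median of 46.9% of the level in PT cells of the same mouse (27.4 to 64.6%), and in LOH cells 65.2% (49.3 to 70.2%). Over the 13 other types the medians ran from 33.2% in principal cells to 73.9% in podocytes (up to 89.7%) and 78.8% in thin limb cells (up to 97.2%). Whether these counts came from free RNA, doublets or PT cells named as another type was not tested. Their part in the members' levels outside PT was not tested either.

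The 6 members together took 4.34, 3.00 and 1.13% of the UMIs of kept cells in Control mice 1, 2 and 3. The shares were 2.21, 1.94 and 1.46% in the AKI-CKD mice, and 2.56, 3.27 and 4.78% in the AKI-CKD + EGT mice. The Control mice thus spanned the AKI-CKD mice, with mouse 3 below every AKI-CKD mouse and mouse 1 above all but 1 of the EGT-treated mice. The means were 2.82% ± 1.61, 1.87% ± 0.378 and 3.54% ± 1.13 (SD, n = 3 in each group), and the lowest EGT-treated mouse lay above the highest AKI-CKD mouse.

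The mitochondrial limit acts on the sum that contains these genes, so the shares were also taken without it. They then were 5.86, 3.59 and 1.23% in Control, 2.75, 2.61 and 1.79% in AKI-CKD, and 3.20, 4.17 and 6.94% in AKI-CKD + EGT mice. The order of the mice within each group was kept, and the EGT-treated mice still lay above the AKI-CKD mice. The limit removed 17.0, 4.41 and 0.909% of cells in Control, 4.62, 4.84 and 1.86% in AKI-CKD, and 5.21, 7.94 and 27.7% in AKI-CKD + EGT mice. The largest removals therefore fell in the 2 libraries with the largest member shares, and the means of AKI-CKD and AKI-CKD + EGT were 2.38% ± 0.520 and 4.77% ± 1.94 without the limit.

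Within a mouse, the limit took a larger share of DCT than of PT cells in 8 of 9 mice, of LOH cells in 6 and of connecting tubule (CNT) cells in 5, and of thin limb cells in 0. The medians over mice were close, at 5.02% of PT, 4.98% of LOH, 5.51% of DCT and 5.07% of CNT cells, against 1.55% of thin limb cells. The segments were far apart in AKI-CKD + EGT mouse 3, where it took 18.5% of PT, 34.4% of LOH, 42.1% of DCT and 49.7% of CNT cells. In that mouse the median DCT cell gave 10.2% of its UMIs to the members without the limit, and 51.4% of its DCT cells were above 10%. For PT cells without the limit, the medians per cell were 5.45, 3.08 and 0.827% in Control, 2.10, 1.81 and 1.24% in AKI-CKD, and 2.60, 3.39 and 5.37% in AKI-CKD + EGT mice. These medians kept the order of the pooled shares, with Control mouse 3 the lowest and Control mouse 1 next to EGT-treated mouse 3 at the top.

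**Figure D1:**
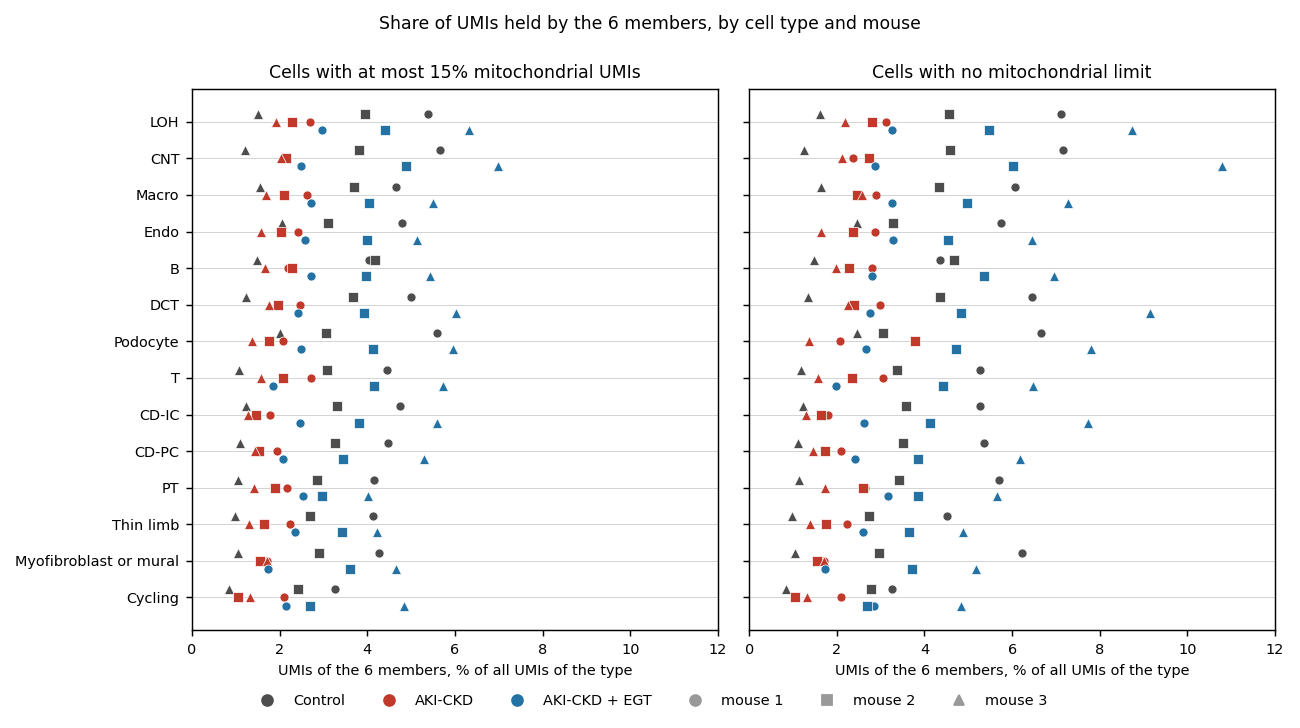
Percent of UMIs held by the 6 members together in each cell type and mouse, with and without the 15% mitochondrial limit; each point is 1 mouse, coloured by group. Values differ more between mice than between cell types, and in the 3 tubule segments PT, LOH and DCT the highest points without the limit are those of AKI-CKD + EGT mouse 3 or Control mouse 1.

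Per length of transcript, the members did not stand at equal levels. Levels are in CPM, UMIs scaled to the same total for each cell type of each mouse. In PT cells, the median over mice was 7636 CPM per kb for mt-Atp6, 6406 for mt-Co2, 4373 for mt-Co1, 4107 for mt-Cytb, 4049 for mt-Co3 and 1826 for mt-Atp8. By this measure mt-Atp8 was the lowest although it shares an mRNA with mt-Atp6, the highest, and the division of reads between the pair is uncertain. In LOH cells mt-Atp6 was again the highest (9249 CPM per kb) and mt-Atp8 the lowest (2362). The order of the counts was another one, and mt-Co1 held the most UMIs of the 6 in each mouse in PT and LOH. Capture at the 3′ end does not scale with length, so the values per kb cannot be read as relative amounts of the mRNAs.

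Between cell types, levels were compared as CPM of all UMIs of the type in a mouse. LOH had the highest geometric mean of the summed members (31539 CPM), followed by CNT (30236), Macro (29075), Endo (28528), B cells (28391), DCT (28082), podocytes (27942), T cells (26180), intercalated cells (24645), principal cells (23932), PT (23430), thin limb (22955), myofibroblast or mural cells (22880) and cycling cells (20085). Neighbours in this order did not differ beyond their spread over mice, since the higher type was higher in 3 to 7 of 9 mice. Within a mouse, the highest type exceeded the lowest by 1.59 fold (AKI-CKD mouse 3) to 2.44 fold (Control mouse 3). Within a type, the highest mouse exceeded the lowest by 3.26 fold (Endo) to 5.76 fold (CNT), and by 3.98 fold in PT. The spread between mice was therefore wider than the spread between cell types for this sum. Podocytes numbered as few as 16 in a mouse, and AKI-CKD mouse 1 had 58 macrophages.

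The 3 tubule segments were compared within the mouse by an exact two-sided sign-flip permutation test on log2(CPM + 1), with p-values adjusted over 18 tests. All 6 members were lower in PT than in LOH in 9 of 9 mice. The mean log2 difference ran from -0.29 ± 0.16 (SD, n = 9) for mt-Atp8 to -0.48 ± 0.15 for mt-Co1, each at the smallest p the test allows (exact p = 0.00391, adjusted p = 0.00586). All 6 were also higher in LOH than in DCT in 9 of 9 mice, by 0.10 (mt-Atp8) to 0.19 (mt-Atp6) on the log2 scale, with the same p-values. PT was below DCT by 0.19 (mt-Atp8) to 0.35 (mt-Co1) in 7 or 8 of 9 mice (exact test, adjusted p = 0.0108 to 0.0234). Complex IV's catalytic subunit mt-Co1 thus showed the widest gap of PT from both other segments, and mt-Atp8 the narrowest.

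Cells of these segments differed in depth, with a median of 2933 UMIs in PT, 2090 in LOH and 2233 in DCT cells, and the members' share fell with depth. Without the limit, PT cells of 1000 to 2000 UMIs gave a median over mice of 4.59% to the members, against 2.41% in cells of 4000 UMIs or more. Within 3 classes of depth, an alternative added after the data were seen, PT remained below LOH in the estimates of all 6 members in each class. The difference passed the exact sign-flip test (adjusted p under 0.05) for 1 member at 1000 to 2000 UMIs (mt-Co1, -0.20), for 5 at 2000 to 4000 UMIs and for 5 at 4000 UMIs or more, where the estimates ran from -0.32 (mt-Co1) to -0.18 (mt-Atp8). The gap of PT from DCT passed in 1, 0 and 1 members, and that of LOH from DCT in 0, 5 and 0. For PT against LOH and against DCT, each member's difference over all cells was thus larger in size than within any class of depth, and at 2000 to 4000 UMIs the estimates for mt-Cytb, mt-Co2, mt-Co3 and mt-Atp6 had PT above DCT, with values that did not pass (0.0145 to 0.0262). Without the mitochondrial limit, PT against DCT no longer passed for mt-Cytb, mt-Co2, mt-Co3, mt-Atp6 and mt-Atp8, and LOH against DCT no longer passed for mt-Cytb, mt-Co1 and mt-Atp8.

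AKI-CKD was first compared with Control, to ask whether these mRNAs differed in the kidneys injured by cisplatin. The UMIs of all cells of a type in a mouse were added up, and levels are CPM scaled by TMM, which corrects for differences in RNA composition between mice. No member passed the test in any of 5 cell types. All 30 estimates lay below 0, from -0.86 (mt-Cytb in LOH) to -0.35 (mt-Co2 in PT) on the log2 scale, with a median of -0.64, but the Control mice overlapped the AKI-CKD mice for every member in every type.

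In PT, mt-Cytb of complex III stood at 7151, 5169 and 2077 CPM in Control mice 1, 2 and 3 and at 3744, 3475 and 2801 CPM in AKI-CKD mice. The 2 higher Control mice lay above all AKI-CKD mice and Control mouse 3 below them (log2 fold change -0.52, SE 0.36). Of the complex IV subunits, mt-Co1 stood at 11727, 7208 and 3053 CPM in Control and at 5375, 5700 and 4304 CPM in AKI-CKD mice (-0.52, SE 0.38).
mt-Co2, which receives the electrons from cytochrome c, stood at 6336, 5725 and 1843 CPM in Control and at 4267, 3673 and 2951 CPM in AKI-CKD mice (-0.35, SE 0.37). mt-Co3 stood at 5161, 4828 and 1345 CPM in Control and at 3312, 2823 and 2446 CPM in AKI-CKD mice (-0.40, SE 0.40). The same pattern of 2 high Control mice and 1 low one held for all 3 subunits of complex IV.
For complex V, mt-Atp6 stood at 8098, 7007 and 2308 CPM in Control and at 5369, 4078 and 3164 CPM in AKI-CKD mice (-0.47, SE 0.39). mt-Atp8 stood at 716, 442 and 119 CPM in Control and at 437, 290 and 232 CPM in AKI-CKD mice (-0.41, SE 0.51). Control mouse 3 was the lowest of the 9 mice in 67 of 84 pairs of member and cell type, and AKI-CKD mouse 3 in 16.

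By edgeR's quasi-likelihood test, 0 of 6 members were called in each type at an adjusted p under 0.05 (adjusted p = 0.568 to 0.759 in PT). Of all genes tested, 0.0449% were called in PT, 0% in DCT, 0.076% in LOH, 0% in Endo and 0.0143% in Macro. At an unadjusted p under 0.05 there were 5 of 30 member tests, 1 of 6 in LOH (mt-Cytb), 4 of 6 in Endo and 0 in the rest. The share of all genes at that p was 11.2% in PT, 8.57% in DCT, 11.6% in LOH, 9.37% in Endo and 5.15% in Macro. DESeq2 also called 0 members, and 0.0285% (Macro) to 1.19% (PT) of all genes. Of all genes, 9.43% in PT, 6.7% in DCT, 8.03% in LOH, 7.18% in Endo and 6.7% in Macro had all 3 AKI-CKD mice below all 3 Control mice, against 0 of 6 members in each. The estimates hung on single Control libraries. In PT, mt-Co1 went from -0.88 without Control mouse 3 to -0.00222 without Control mouse 1, and mt-Atp8 from -0.85 to 0.19. Without the filter on low counts, 1 member in DCT, 6 in LOH and 3 in Endo were called, all lower in AKI-CKD, where 0.588, 0.891 and 0.53% of all genes were called.

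**Figure D2:**
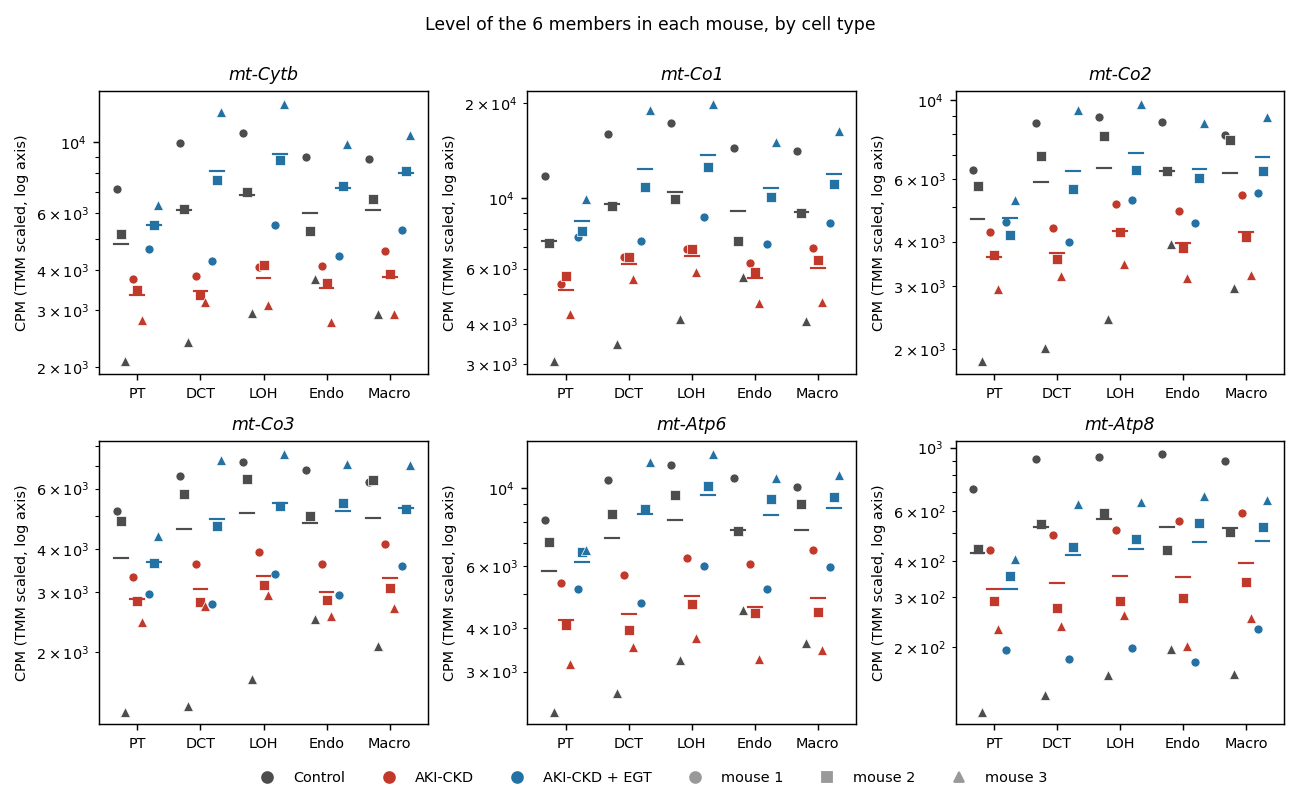
Level of each of the 6 members in PT, DCT, LOH, Endo and Macro cells (TMM-scaled CPM, log axis), with 1 point per mouse and a bar at the group mean. The Control points overlap the AKI-CKD points in every panel and cell type, and for mt-Cytb and mt-Co1 the 3 AKI-CKD + EGT points lie above the 3 AKI-CKD points.

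AKI-CKD + EGT was then compared with AKI-CKD, to ask whether these mRNAs differed with EGT in injured kidneys. This comparison shares its AKI-CKD mice with the one above. No member passed the test, although 29 of 30 estimates lay above 0, with a median of 0.73. The estimates were the highest for mt-Cytb and mt-Co1 in each type, reaching 1.27 (SE 0.35, 2.42 fold) for mt-Cytb in LOH, and the lowest for mt-Atp8.

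In LOH, mt-Cytb stood at 5513, 8780 and 13148 CPM in the EGT-treated mice, against 4092, 4149 and 3113 CPM in AKI-CKD and 10638, 6978 and 2937 CPM in Control mice. All EGT-treated mice lay above all AKI-CKD mice, and the Control mice overlapped both groups (adjusted p = 0.138 by edgeR).
In PT, mt-Cytb stood at 4659, 5520 and 6356 CPM in the EGT-treated mice, above all AKI-CKD mice (0.72, SE 0.36). In DCT it stood at 4275, 7634 and 12407 CPM, against 3831, 3342 and 3173 CPM in AKI-CKD mice (1.23, SE 0.42). The groups did not overlap in either segment, and without EGT-treated mouse 3 the DCT estimate was 0.79.

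Of the complex IV subunits, mt-Co1 stood at 8721, 12546 and 19906 CPM in LOH of the EGT-treated mice, against 6899, 6923 and 5862 CPM in AKI-CKD mice (1.07, SE 0.37). In PT it stood at 7534, 7885 and 9947 CPM in EGT-treated mice (0.72, SE 0.38), and in DCT at 7312, 10845 and 18977 CPM, against 6517, 6505 and 5572 CPM in AKI-CKD mice (1.00, SE 0.42). The groups were apart in all 3 segments, and without EGT-treated mouse 3 the estimate was 0.69 in LOH and 0.55 in DCT.
mt-Co2 stood at 5218, 6358 and 9765 CPM in LOH of EGT-treated mice, against 5105, 4247 and 3467 CPM in AKI-CKD mice (0.74, SE 0.35), where the closest mice were nearly level and the estimate was 0.43 without EGT-treated mouse 3. In PT the mt-Co2 groups overlapped, at 4532, 4171 and 5234 CPM against 4267, 3673 and 2951 CPM (0.36, SE 0.37, and 0.22 to 0.48 with 1 mouse left out). mt-Co3 overlapped in all 3 segments, for example at 2952, 3655 and 4365 CPM against 3312, 2823 and 2446 CPM in PT (0.35, SE 0.40, and 0.22 without EGT-treated mouse 3). Within complex IV, the groups were thus apart in 3 segments for mt-Co1, in LOH alone for mt-Co2 and in none of the 3 for mt-Co3. The mt-Co2 overlap in PT turned on the scaling, since in plain CPM per kb the EGT-treated mice, at 6681, 6406 and 9285, lay above the AKI-CKD mice, at 5980, 5048 and 3831.

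For complex V, mt-Atp6 stood at 6007, 10136 and 12555 CPM in LOH of EGT-treated mice, against 6308, 4684 and 3751 CPM in AKI-CKD mice (0.96, SE 0.36). In PT it stood at 5158, 6584 and 6686 CPM against 5369, 4078 and 3164 CPM (0.55, SE 0.39). EGT-treated mouse 1 lay within the AKI-CKD mice in both.
mt-Atp8 stood at 195, 354 and 408 CPM in PT of EGT-treated mice, against 437, 290 and 232 CPM in AKI-CKD mice, with an estimate of -0.00201 (SE 0.51). In LOH it stood at 199, 477 and 645 CPM against 514, 290 and 260 CPM (0.33, SE 0.46). EGT-treated mouse 1 lay below every AKI-CKD mouse for mt-Atp8 in both segments, and its LOH estimate was -0.0602 without EGT-treated mouse 3.

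In edgeR's test, 0 of 6 members were called in each type (adjusted p = 0.138 to 0.999), against 0% of all genes in PT, 0% in DCT, 0.076% in LOH, 0.00964% in Endo and 0.0143% in Macro. At an unadjusted p under 0.05 there were 15 of 30, 0 in PT, 3 of 6 in DCT and Macro, 4 of 6 in LOH and 5 of 6 in Endo. The share of all genes at that p was 15.1% in PT, 11.5% in DCT, 13.9% in LOH, 10.2% in Endo and 6.27% in Macro. DESeq2 called 2 members, mt-Cytb and mt-Co1 in Endo, with 0.607% of all genes. All 3 EGT-treated mice lay above all 3 AKI-CKD mice in 12 of 30 pairs: 2 of 6 members in PT, DCT and Endo and 3 of 6 in LOH and Macro. Of all genes, 10.2% did so in PT, 8.19% in DCT, 8.19% in LOH, 7.58% in Endo and 6.2% in Macro. mt-Cytb in LOH was called without Control mouse 3 (adjusted p = 0.0356 by edgeR), without EGT-treated mouse 1 (0.0295) and with only the 6 mice compared, fits that called 0.452, 2.22 and 0.454% of all genes. Over 20 alternatives its adjusted p ran from 2.43e-10 to 0.513. The only other call among them came without the filter on low counts. That fit also called members lower in AKI-CKD than in Control in LOH, although those mice overlapped for every member. Without the filter on low counts, 4 members were called in DCT, 5 in LOH, 5 in Endo and 2 in Macro, all higher with EGT, where 1.32, 1.66, 0.917 and 0.272% of all genes were called.

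Over the 14 named types, taken as plain CPM, all EGT-treated mice lay above all AKI-CKD mice in 13 types for mt-Cytb, 12 for mt-Co1, 11 for mt-Co2, 3 for mt-Co3, 4 for mt-Atp6 and 0 for mt-Atp8. Of all pairs of gene and type with a mean of at least 50 CPM, 8.83% did so. Without the mitochondrial limit the counts were 12, 11, 9, 2, 5 and 0, against 8.42% of all pairs. All AKI-CKD mice lay below all Control mice in 1 type each for mt-Cytb and mt-Co1 and in 0 for the other members, against 8.16% of all pairs, and without the limit in 0 types for every member, against 8.01%. The types of a mouse share a library and any free RNA in it, so these counts are not independent. AKI-CKD + EGT mouse 3 was the highest of the 9 mice in 64 of 84 pairs of member and type, and Control mouse 1 in the other 20.

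**Figure D3:**
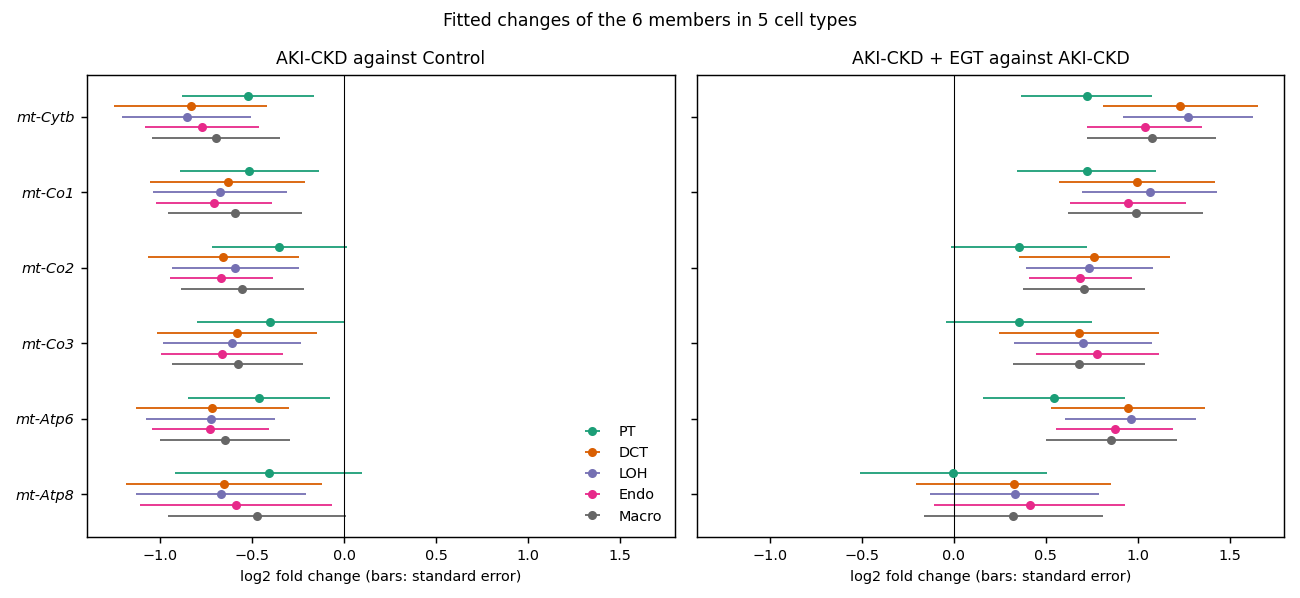
Log2 fold change of each member in 5 cell types for both comparisons, with bars of 1 SE, derived from the F statistic of the fit of 9 mice. In AKI-CKD against Control all points lie below 0, and for EGT-treated against AKI-CKD mice all but mt-Atp8 in PT lie above 0; none passed the test.

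Whether the response differed between cell types was asked by a limma test, added after the data were seen, of the difference between each of DCT, LOH, Endo or Macro and PT within the mouse. Of 48 member tests, 0 passed at an adjusted p under 0.05. Of all genes, 0.561% passed in LOH for EGT, 0.00951% in LOH and 0.0295% in Endo for AKI-CKD against Control, and 0% in the other 5 tests. The smallest p was that of mt-Cytb in LOH against PT for EGT (0.47 higher on the log2 scale, SE 0.17, adjusted p = 0.17 by limma). The size of the difference between segments was thus not resolved with 3 mice a group.

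The members were next set against each other within the pool of 13 mitochondrially encoded mRNAs, which takes out the total mitochondrial content of a library. In PT, mt-Cytb held 14.02, 14.39 and 14.36% of the pool in AKI-CKD + EGT mice, against 12.13, 13.09 and 13.29% in AKI-CKD and 13.01, 12.81 and 14.13% in Control mice. mt-Co2 held 13.64, 10.87 and 11.83% with EGT against 13.83, 13.84 and 14% in AKI-CKD mice, and mt-Co3 8.89, 9.53 and 9.87% against 10.7, 10.6 and 11.6%. mt-Atp8 held 0.588, 0.924 and 0.923% with EGT against 1.417, 1.093 and 1.102% in AKI-CKD and 1.303, 1.094 and 0.808% in Control mice. The share of mt-Cytb was thus higher, and those of mt-Co2, mt-Co3 and mt-Atp8 lower, in every EGT-treated than in every AKI-CKD mouse. The shares of a pool add up to a fixed total, so they are not independent of each other. How often the shares of the complex I mRNAs separated in this way is not given here.

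The same separation was seen in DCT and LOH. These cells come from the same mice and libraries as PT, so the 3 segments are not independent of each other. The mt-Cytb share was higher by 1.42 points in PT, 2.24 in DCT and 2.45 in LOH. The differences were -1.78, -1.53 and -2.02 points for mt-Co2, -1.56, -1.95 and -2.05 for mt-Co3, and -0.392, -0.427 and -0.443 for mt-Atp8. With 3 mice against 3, an exact two-sided permutation test cannot go below p = 0.1, the value found for these 12 differences (adjusted p = 0.3 over 36 tests), so none passed. mt-Co1 held 21.9% ± 1.17 with EGT and 19.8% ± 2.11 in AKI-CKD mice in PT (SD, n = 3), and mt-Atp6 15.9% ± 1.09 and 15.9% ± 1.29, and both overlapped in all 3 segments. Between AKI-CKD and Control, all 6 shares overlapped in all 3 segments (exact permutation p = 0.2 to 1).

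**Figure D4:**
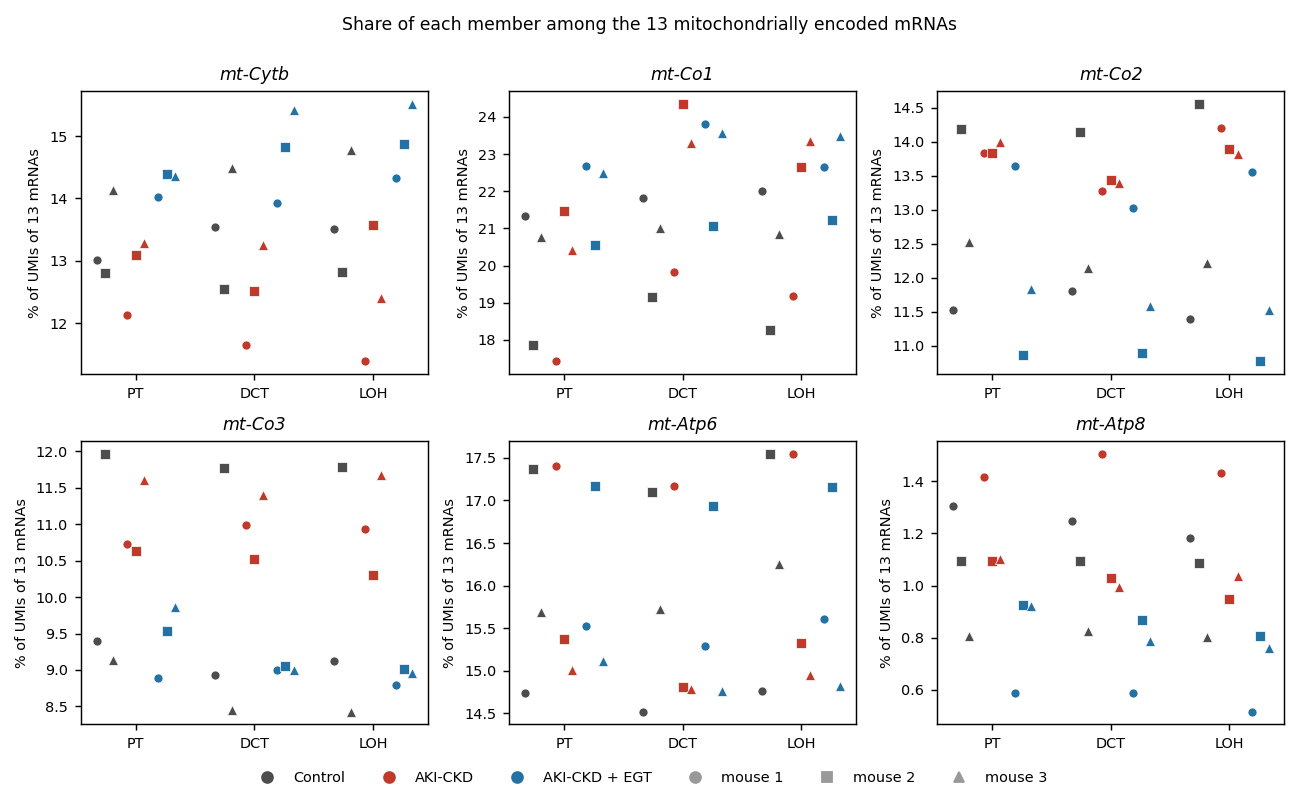
Percent of the UMIs of the 13 mitochondrially encoded mRNAs held by each member in PT, DCT and LOH, 1 point per mouse. With EGT the mt-Cytb points lie above, and the mt-Co2, mt-Co3 and mt-Atp8 points below, the AKI-CKD points in all 3 segments, while mt-Co1 and mt-Atp6 overlap.

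UMI ratios between members differed between mice. Although mt-Atp8 and mt-Atp6 share an mRNA, the number of mt-Atp8 UMIs per 100 mt-Atp6 UMIs in PT was 8.85, 6.30 and 5.15 in Control, 8.15, 7.11 and 7.34 in AKI-CKD, and 3.79, 5.38 and 6.11 in AKI-CKD + EGT mice. Those in LOH were 8.00, 6.18 and 4.94, then 8.15, 6.18 and 6.93, then 3.31, 4.70 and 5.14. In both segments the highest EGT-treated mouse lay below the lowest AKI-CKD mouse. The 2 groups overlapped in Endo (up to 6.31 with EGT, from 6.23 in AKI-CKD), podocytes, T cells and myofibroblast or mural cells. They were apart in the other named types, which share the same libraries. These ratios were not tested, and how often ratios of other genes separate the groups is not given here. mt-Co1 UMIs per 100 mt-Co2 UMIs in PT were 185, 126 and 166 in Control, 126, 155 and 146 in AKI-CKD, and 166, 189 and 190 in AKI-CKD + EGT mice.

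Across PT, DCT and LOH, the median estimates of the nuclear-encoded subunits of the same complexes lay on the other side of 0 from those of the members. In PT, the estimates for AKI-CKD against Control were above 0 for 9 of 9 complex III, 15 of 16 complex IV and 18 of 18 complex V subunits (median log2 0.20, 0.37 and 0.35), against 48.2% of all genes and a median of -0.01. For EGT against AKI-CKD, 9 of 9, 15 of 16 and 17 of 18 were below 0 (median -0.36, -0.44 and -0.36). None of these subunits passed the test in PT, DCT or LOH. All 3 AKI-CKD mice lay above all 3 Control mice for 4, 12 and 10 of them in PT, where 11.4% of all genes did, and all 3 EGT-treated mice below all 3 AKI-CKD mice for 4, 10 and 11, where 11.1% of all genes did. In LOH the medians were 0.16, 0.33 and 0.24, then -0.31, -0.41 and -0.32. Outside the tubule this did not hold throughout. For AKI-CKD against Control the complex III median was -0.0472 in Macro, on the members' side, and the complex III and V medians in Endo were close to 0, at 0.0162 and 0.0263. Over 20 alternatives of scaling, filtering, limit and left-out mouse, the medians of the 3 nuclear lists and of the members kept their sides of 0 in PT, DCT and LOH. In PT the complex IV median ran from 0.31 to 0.45 for AKI-CKD against Control and from -0.54 to -0.32 for EGT against AKI-CKD, and that of the members from -0.85 (without Control mouse 3) to -0.0856 (without Control mouse 1) and from 0.31 to 0.62.

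Among them, Uqcr11, a small subunit of complex III, stood at 1300, 1599 and 1173 CPM in PT of Control, 1643, 2166 and 1873 CPM of AKI-CKD and 1162, 1194 and 1101 CPM of AKI-CKD + EGT mice. Its log2 fold change was 0.48 (SE 0.17) and then -0.72 (SE 0.17, adjusted p = 0.218 by edgeR), and in LOH with EGT it was -0.70 (SE 0.15, adjusted p = 0.0622). The complex III subunit Uqcr10 gave 0.45 and -0.49 in PT. In complex IV, Cox6b2, an isoform best known from testis, gave 1.67 (SE 0.29) and -1.13 (SE 0.28), Cox7a1 gave 0.61 in AKI-CKD, and Cox6b1, which lies where 2 oxidase monomers meet, gave -0.75 (SE 0.22) with EGT. In complex V, Atp5f1e, the epsilon subunit of the catalytic head, gave 0.53 and -0.55, Atp5mf 0.44 in AKI-CKD and Atp5mj -0.54 with EGT. Every one of these values was short of an adjusted p of 0.05.

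Set against the nuclear subunits directly, the members gave 88.2, 56.9 and 22.9 UMIs per 100 UMIs of the 43 nuclear subunits in PT of Control mice. They gave 40.8, 30.2 and 25.7 in AKI-CKD and 48.8, 60.1 and 84.9 in AKI-CKD + EGT mice. The LOH values were 92.1, 63.1 and 24.4, then 37.1, 28.2 and 27.4, then 45.0, 77.1 and 118. All EGT-treated mice lay above all AKI-CKD mice in PT, DCT and LOH, and the Control mice spanned the AKI-CKD mice. How often ratios of other gene sets separate the groups in this way is not given here. By complex, the EGT-treated and AKI-CKD mice were apart for complex III and complex IV and overlapped for complex V in PT, DCT, LOH, Endo and Macro. Control and AKI-CKD mice overlapped for each complex in these types except for complex III in Endo, where mt-Cytb gave 57.1, 56.5 and 39.8 UMIs per 100 nuclear UMIs in AKI-CKD mice, below the 125, 83.3 and 59.7 of Control mice, and they were apart there without the limit too. Without the mitochondrial limit the groups overlapped in DCT for the 6 members together, where EGT-treated mouse 1 (33.8) lay below AKI-CKD mouse 1 (34.3), and stayed apart there for complex III and complex IV. Complex V was then apart in Endo and overlapped in the other 4 types.

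**Figure D5:**
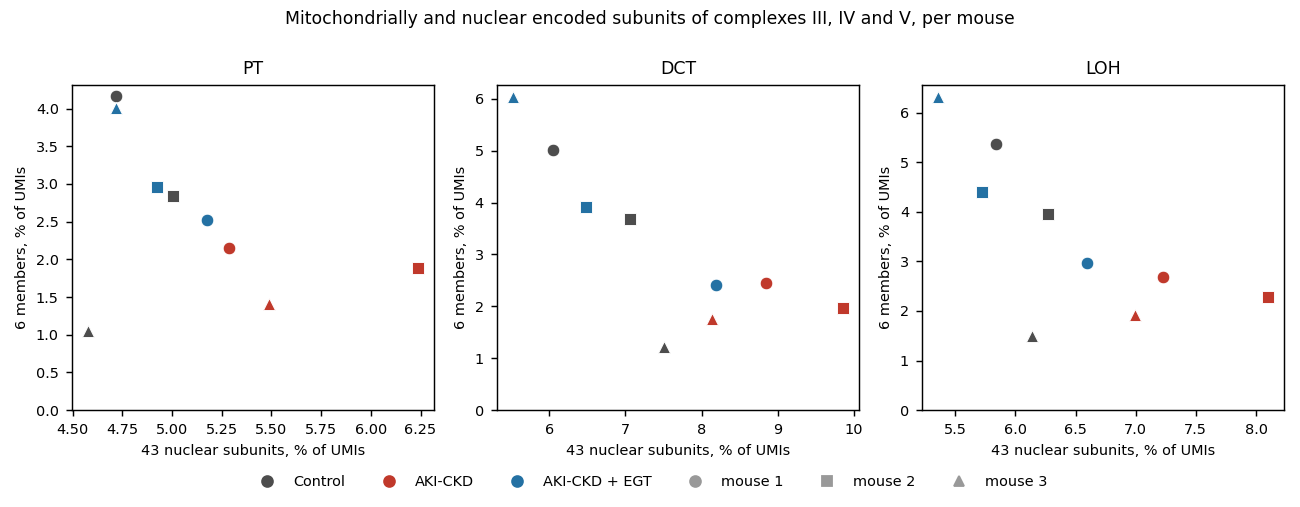
Percent of UMIs held by the 6 members (vertical axis) against percent held by the 43 nuclear subunits of complexes III, IV and V (horizontal axis, not from 0) in PT, DCT and LOH, 1 point per mouse. The AKI-CKD mice lie low and to the right and EGT-treated mice 2 and 3 high and to the left, while Control mouse 3 is the lowest in the members in each segment. EGT-treated mouse 1 lies between them in PT and LOH, and within the range of the AKI-CKD mice on both axes in DCT.

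In PT, DCT and LOH, the medians of the lists of assembly and of gene expression lay closer to 0 than those of the nuclear subunits. This did not hold throughout in Endo and Macro. There the assembly medians for AKI-CKD against Control were 0.108 and 0.0951, against 0.0162 and -0.0472 for complex III. Assembly factors of complexes III, IV and V had medians of 0.14 and -0.27 in PT (25 of 29 above 0, then 25 of 29 below 0), and genes of mitochondrial DNA copying, transcription and RNA handling 0.11 and -0.15, with 0 called in either list. The 7 mitochondrially encoded complex I genes had medians of -0.58 and 0.69 in PT and thus lay on the members' side, farther from 0 than the members' own medians of -0.44 and 0.45. Ribosomal protein genes, which have no part in respiration, lay with the nuclear subunits, at 0.37 and -0.45 in PT (92.2% of those tested above 0, then 6.86%). In LOH, 1 of the 95 ribosomal protein genes tested, Rps27rt, was called lower with EGT (-1.23, adjusted p = 0.0342 by edgeR). Of all genes, 0.076% were called there. Whether this call held under the other settings is not given here.

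Measures of library quality differed between mice as well. Malat1 and Neat1, RNAs that stay in the nucleus, took 0.981, 0.995 and 0.827% of PT UMIs in Control, 0.960, 0.498 and 0.297% in AKI-CKD, and 0.712, 0.699 and 1.57% in AKI-CKD + EGT mice. They were lowest in AKI-CKD mouse 3, which was also the lowest of its group for each member in PT, and highest in EGT-treated mouse 3. The median of the pair was -0.75 for AKI-CKD against Control and 0.79 for EGT against AKI-CKD in PT, with 0 called. The 11 genes induced by tissue dissociation took 0.255, 0.200 and 0.0964%, then 0.145, 0.286 and 0.177%, then 0.129, 0.227 and 0.304% in PT, and overlapped between all groups. For EGT against AKI-CKD, 11 of 11 of these genes had estimates below 0 in DCT (median -0.60) and 9 of 11 in LOH (median -0.36), against 5 of 11 in PT (median 0.0187). For AKI-CKD against Control, 11 of 11 were above 0 in DCT and LOH (medians 0.30 and 0.27), and 0 were called in either comparison. Haemoglobin genes, markers of red blood cells, were near 0 in these types. A cluster of 4871 cells led by these genes, with the PT marker Slc7a13 also among its leading genes, stayed unnamed. Of the cells in this cluster, 44.3% came from a single library. Control mouse 3 had the most unnamed cells of all kinds, 3135 against 919 to 2110 in the other mice. The cells of this cluster were thus not counted in PT, and the haemoglobin values that follow are those left without them. How leaving them out bore on the members' levels in PT was not tested. The 4 genes together took 4.29e-05, 0.0012 and 0.00378% of PT UMIs in Control, 7.84e-06, 1.49e-05 and 9.68e-05% in AKI-CKD, and 0.000435, 0.0032 and 0.000882% in AKI-CKD + EGT mice. All EGT-treated mice thus lay above all AKI-CKD mice, and Control mouse 3, the lowest in the members, was the highest. In PT their median log2 fold change was -5.17 for AKI-CKD against Control and 5.03 for EGT against AKI-CKD, with 0 of 4 called in either. The medians of the 3 that could be tested were -7.78 and 7.26 in DCT and -5.21 and 5.64 in LOH, again with 0 called. In AKI-CKD mice 1, 2 and 3 these genes took only 0, 0 and 7.63e-05% of DCT UMIs. In LOH they took 8.29e-05, 0.00015 and 0.000111%, so the folds in both segments rest on very few UMIs. The part of blood cells, RNA quality and cell handling in the members' levels was not tested.

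The nuclear genes whose levels ran most like the sum of the members over the 9 mice, by the mean Pearson r in PT, DCT and LOH among 2193 nuclear genes, were Chka (0.904), Sik3 (0.894), Nedd4l (0.889), Lrmda (0.863) and Clic4 (0.853). Those that ran most against it were Cox7a2l (-0.912), Atp5pb (-0.894), Rpl17 (-0.894), Fkbp3 (-0.875) and Capns1 (-0.873). Among the latter, 2 are nuclear genes of the respiratory chain, Cox7a2l, listed here with the complex IV subunits, and Atp5pb, a stalk subunit of complex V. Against the sum of the other 5, each member had a mean r of 0.967 (mt-Co3) to 0.982 (mt-Atp6), except mt-Atp8 with 0.872. The 9 points share their library and their total, and the values are given as a description.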

How the data were processed

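Single-cell RNA libraries were made from 9 mouse kidneys on the DNBelab C4 droplet system with poly(dT) capture. The authors deposited raw UMI counts per gene and cell for each mouse, written by PISA v1.0 per the file headers and placed on build GRCm39 per the submitters' processing notes. The aligner and gene annotation are not given in the sources used here. Sample titles gave each mouse's group and replicate number. The members and gene lists were chosen with earlier results of these data known.

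Cells had at least 1000 UMIs, 500 genes and at most 15% mitochondrial UMIs, which kept more cells than the study states for limits of the same wording. Cell names were serial numbers and could not be compared between libraries. Counts were log-normalized, and 2000 variable genes, without the mitochondrially encoded, ribosomal protein and nuclear complex I to V genes, gave 30 components, corrected by Harmony and clustered at resolution 1.1 (20 neighbours). A cluster was named when at least 3 markers of a type were at least 2 fold above other clusters. The rules that left haemoglobin-led clusters and clusters led by another type's genes unnamed were set after clusters were seen. Doublets stayed in, and an alternative left out the 6% of cells with the highest doublet scores. Cells above the limit took the type of their 15 nearest kept cells.

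UMI counts were summed per mouse and type and tested by edgeR's quasi-likelihood F test (TMM, filterByExpr, 9 mice in 1 fit), with Benjamini-Hochberg adjustment over all genes and calls at an adjusted p under 0.05. The SE given with an edgeR estimate is the absolute log2 fold change divided by the square root of its F statistic. The edgeR p-values rest on the spread between mice within groups, estimated from all 9 mice in 1 fit. Those of the sign-flip tests rest on 9 differences within mice, and those of the permutation tests on 3 mice against 3. Cell types were compared within mice by exact sign-flip tests on log2(CPM + 1), and shares by exact permutation tests, all two-sided. Named genes were the 6 members, up to 3 called genes of each list by size, the 2 smallest p of each nuclear subunit list where none was called, and the 5 nuclear genes most and least like the members (mean CPM of at least 50). No library was left out. Intervals for counts were not computed, since replicate spread was used. Reads of overlapping genes cannot be assigned with certainty. Clustering and exact tests used igraph 0.11.9, scikit-learn 1.9.0, scipy 1.17.1 and numpy 2.4.6 in Python 3.11.15, and the fits R 4.3.3 with edgeR 4.0.16, limma 3.58.1 and DESeq2 1.42.0. The scripts were tested on simulated data. Sequences came from GENCODE M21 on GRCm38, of which no coordinates are used.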

Additional observations from a re-analysis of the deposited data

How the results depend on the processing

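Fits of the 9 mice with library sizes taken without mitochondrial, ribosomal protein and Malat1 counts, with limits of 10 or 20% or no limit, without the highest doublet scores, with all variable genes or without Harmony kept 0 members called in both comparisons. Without the filter on low counts, 1 member in DCT, 6 in LOH and 3 in Endo were called for AKI-CKD against Control, and 4 in DCT, 5 in LOH, 5 in Endo and 2 in Macro for EGT against AKI-CKD. With only the 6 mice compared, 1 was called in LOH, and with DESeq2 2 in Endo, both for EGT against AKI-CKD. The shares of all genes called by these fits are given above beside each comparison. Leaving out 1 mouse gave 0 to 1 in LOH for EGT against AKI-CKD. The causes were not tested.

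Replicate numbers did not pair the mice, since the deviations of same-numbered mice correlated at -0.565 to 0.377, over 0.1 in 5 of 27 pairs, and those of other pairs at -0.477 to 0.578. The fit with the replicate block called 0 members. mt-Atp8 in PT (EGT against AKI-CKD, -0.00201) turned to 0.16 under the replicate block, 0.0102 with DESeq2, 0.0165 with 6 mice, 0.0526 without the limit and 0.0239 with a limit of 20%. With 1 mouse left out it ran from -0.21 to 0.29, and mt-Atp8 from -0.10 to 0.73 in DCT and -0.0602 to 0.69 in LOH. For AKI-CKD against Control, mt-Atp8 ran from -0.85 to 0.19 in PT, -1.07 to 0.15 in Endo and -0.89 to 0.17 in Macro.

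Without the limit, the members' mean share moved beyond 1 SD to 2.38 and 4.77% over all cells (AKI-CKD, AKI-CKD + EGT), 2.32 and 4.23% in PT, and 2.55% in DCT, 2.70% in LOH and 2.64% in Macro (AKI-CKD). PT minus DCT then lost its call for mt-Cytb (-0.21), mt-Co2 (-0.18), mt-Co3 (-0.18), mt-Atp6 (-0.19) and mt-Atp8 (-0.17), and LOH minus DCT for mt-Cytb (0.13), mt-Co1 (0.0709) and mt-Atp8 (0.0563). With all variable genes, mt-Atp8 PT minus DCT was -0.14 and lost its call.

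Within classes of depth, added after seeing the data, further calls between segments were lost. At 1000 to 2000 UMIs, PT minus DCT was -0.099, -0.0646, -0.0677, -0.0649 and -0.11 for mt-Cytb, mt-Co2, mt-Co3, mt-Atp6 and mt-Atp8, PT minus LOH -0.10, -0.12, -0.11, -0.11 and -0.12, and LOH minus DCT 0.0043, 0.0554, 0.0394, 0.0478 and 0.0084, with 0.0189 for mt-Co1. At 2000 to 4000 UMIs, PT minus DCT turned to 0.0211, 0.0145, 0.0148 and 0.0262 for mt-Cytb, mt-Co2, mt-Co3 and mt-Atp6, and was -0.11 for mt-Co1 and -0.0603 for mt-Atp8, whose PT minus LOH was -0.11 and LOH minus DCT 0.0457. At 4000 UMIs or more, PT minus DCT was -0.13, -0.14, -0.14, -0.14 and -0.0903 in the same 5 members, LOH minus DCT 0.13, 0.14, 0.0758, 0.13 and 0.0875, with 0.0573 for mt-Co1, and mt-Atp8 PT minus LOH -0.18.

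Small differences in share changed sign. For mt-Atp6, AKI-CKD minus Control in PT was 0.0966 points without the limit, 0.0274 at 20%, 0.0142 without doublets and 0.00478 without Harmony. EGT minus AKI-CKD was -0.168, -0.0548 and -0.0030 in PT without the limit, at 20% and without doublets, -0.0391 and -0.0642 in DCT without the limit and at 20%, and 0.00974 in LOH at 10%. With 1 mouse left out, mt-Atp6 ran from -0.742 to 0.712 (PT), -0.978 to 0.475 (DCT) and -1.06 to 0.433 (LOH) for AKI-CKD minus Control, and from -0.608 to 0.744, -0.564 to 0.865 and -0.721 to 0.732 for EGT minus AKI-CKD. mt-Co1 ran from -1.28 to 0.961 (PT, AKI-CKD minus Control), -1.01 to 1.25 (DCT, EGT) and -0.531 to 1.55 (LOH, EGT), and mt-Atp8 from -0.0434 to 0.216 (DCT) and -0.0313 to 0.211 (LOH), AKI-CKD minus Control.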
